A study of Mus musculus with 9 samples.

Results

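The endothelin jaw patterning genes examined here were Edn1, Ednra, Ece1, Hand1, Hand2 and Gsc, followed in mouse embryonic orofacial tissue on gestation days (GD) 12, 13 and 14. The genes were listed by name, with earlier results of these data known. Their probe sets were then taken by a rule that uses no measured value. Every probe set whose array annotation gave 1 of these symbols and no other was taken. Of the 6 genes, 5 had such a probe set, out of 8251 genes so represented on the array, and together they had 7 of its 10833 single-symbol probe sets. Ednra, the receptor, had none and is not analysed here. Total RNA was hybridized to 9 one-colour arrays, 3 for each day. The labels describe all 3 groups only as murine embryonic orofacial tissue of the stated day and name no strain, genotype, treatment or pooling, so the p-values measure only the spread between these samples, which may be technical.

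Endothelin-1 is a short secreted peptide. In the embryonic face it is made by the epithelium, mesoderm core and endothelium of the pharyngeal arches, and it acts on the neural crest mesenchyme that will form the jaw skeleton. Its precursor is cut first by a furin-type protease and then by an endothelin-converting enzyme, and the peptide signals through the type A receptor, Gq-class G proteins and phospholipase C. In crest cells of the lower jaw this signal turns on Dlx5 and Dlx6, then Hand2 and other lower jaw genes, and in its absence the lower jaw takes on upper jaw features. This patterning is set up in the arches before the palate forms.

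None of the 4 members that could be tested was called as changed between days. The test was limma, a linear model with moderated variances, on log2 of the intensity plus 3, with Benjamini-Hochberg adjustment over all 9326 probe sets tested. An adjusted p under 0.05 counted as a call. Of the 7 member probe sets, 5 passed a filter on low values, standing for Edn1, Ece1, Hand1 and Gsc, and the other 2, of Hand1 and Hand2, did not. Calls among the 5 numbered 0 from GD12 to GD13, 0 from GD13 to GD14 and 0 from GD12 to GD14. Over the whole array 0.643%, 0.0429% and 4.3% of tested probe sets were called in these comparisons, so a count of 0 among 5 does not set the members apart from the rest of the array. The arrays of 2 days overlapped for all 5 in each comparison, where 18.5%, 13% and 22.3% of all tested probe sets were without overlap. Unadjusted p-values of the 5 lay between 0.118 and 0.931 over the 3 comparisons, so that 0 of 5 was under 0.05 in each of them, where 11%, 7.18% and 17.5% of all tested probe sets were. At those shares 0 of 5 is near the background. A moderated F-test over the 3 days called 0 of the 5 (adjusted p = 0.667 to 0.936), against 2.58% of the table, and 0 had an unadjusted p under 0.05, against 14.2% of the table. A test of the second daily step minus the first called 0 of the 5 (adjusted p = 0.957 to 0.992) and 0% of all probe sets, with 0 members and 453 of all probe sets (4.86%) at an unadjusted p under 0.05.

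**Figure D1:**
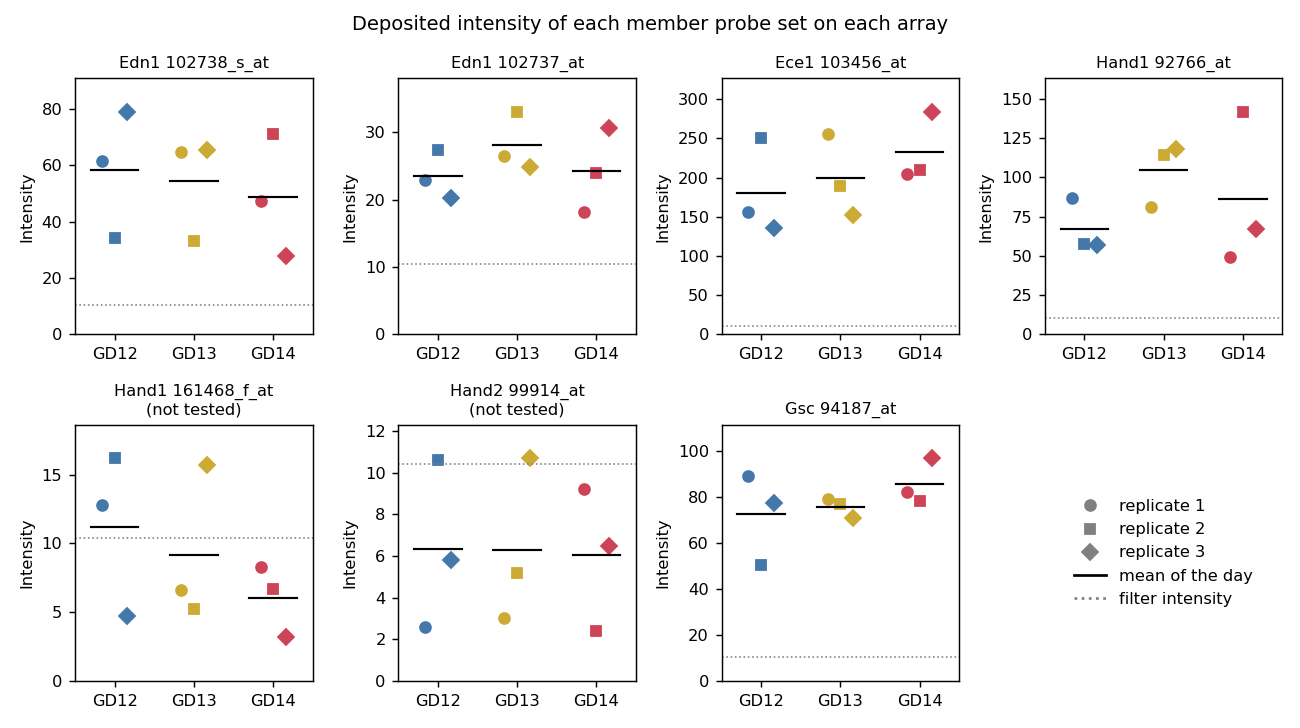
Deposited intensity (linear scale, arbitrary units) of the 7 member probe sets on the 9 arrays, with 1 panel per probe set; colours mark days, symbols mark replicate numbers, black lines are means of 3 arrays and the dotted line is the filter intensity of 10.41. In every panel the values of the 3 days overlap, and most values of Hand2 and of the second Hand1 probe set lie under the filter line.

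The ligand gene Edn1 was measured by 2 probe sets. On probe set 102738_s_at the intensities were 61.4, 34.3 and 78.9 at GD12, 64.8, 33.1 and 65.2 at GD13, and 47.3, 71.0 and 27.7 at GD14, for replicates 1 to 3. Each day thus held 1 array with a low value, replicate 2 on GD12 and GD13 and replicate 3 on GD14, and the 3 days overlapped throughout. The day means were 58.2 ± 22.5, 54.4 ± 18.4 and 48.7 ± 21.7 (SD, n = 3 each), ordered GD12, GD13, GD14, and neither neighbouring pair differed beyond its spread. From GD12 to GD14 the log2 change was -0.26 (SE 0.41, limma adjusted p = 0.815), and the 95% interval of the fold ran from 0.437 to 1.59.

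The other Edn1 probe set, 102737_at, varied less. It read 22.9, 27.4 and 20.3 at GD12, 26.5, 33.0 and 24.8 at GD13, and 18.1, 23.9 and 30.6 at GD14. The day means were 23.5 ± 3.59, 28.1 ± 4.33 and 24.2 ± 6.26 (SD, n = 3 each). GD13 had the highest mean, but its lowest array lay below the highest arrays of both other days. From GD12 to GD14 the log2 change was 0.02 (SE 0.21, limma adjusted p = 0.981), and the 95% interval of the fold was 0.729 to 1.41. For the first step the log2 change was 0.23 (SE 0.21, limma adjusted p = 0.753), and for the second it was -0.21 (SE 0.21, limma adjusted p = 0.921).

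The 2 Edn1 probe sets did not rise and fall together from array to array. They were not placed on their transcripts, and whether both report Edn1 RNA alone was not tested. On GD12 and on GD13 the array that was lowest on 102738_s_at was the highest on 102737_at, and on GD14 replicate 3 held the lowest value of the one and the highest of the other. Over the 9 arrays their log2 values had a Pearson r of -0.634 (exact two-sided permutation p = 0.0707, adjusted p = 0.141 over 2 relations) and a Spearman rho of -0.633 (exact permutation p = 0.076, adjusted p = 0.152). After removal of the day means r was -0.747, given as a description of 3 arrays a day. Without the 2 arrays farthest from the median of 102738_s_at, GD13 replicate 2 and GD14 replicate 3, r was -0.204 (exact permutation p = 0.674). Removing the extremes of 1 probe set narrows its range and can weaken any correlation, so this does not show which arrays the relation rests on. Without GD14 replicate 1, r was -0.869 (exact permutation p = 0.00303), against -0.532 to -0.689 without each other array in turn.

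**Figure D2:**
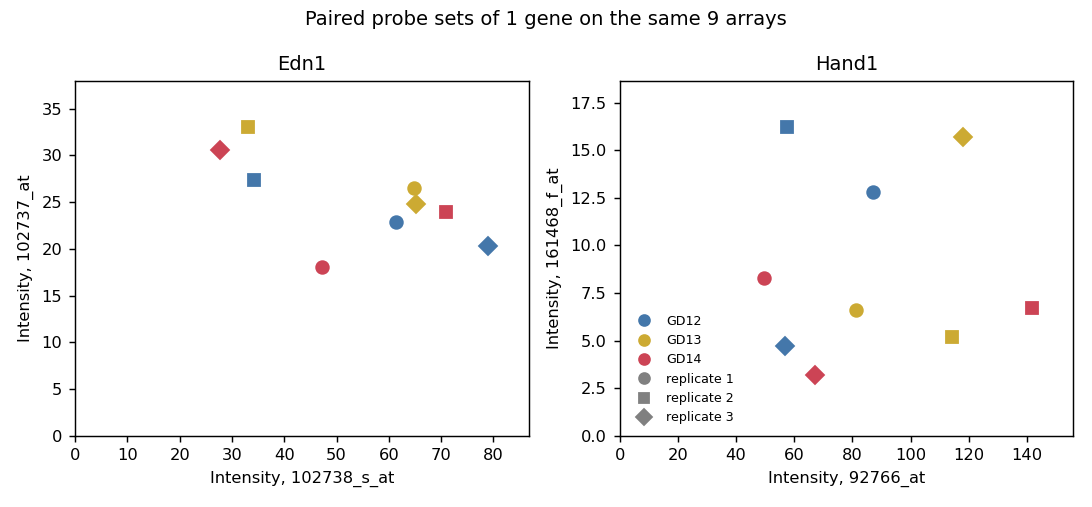
Intensity of the second probe set of Edn1 (left) and of Hand1 (right) plotted against the first, with 1 point per array, colours for days and symbols for replicate numbers. The 3 arrays lowest on Edn1 102738_s_at, at 27.7 to 34.3, are the 3 highest on 102737_at, while the Hand1 probe sets show no common trend (r = 0.07).

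Ece1 encodes the endothelin-converting enzyme that releases the active peptide. Its probe set read 155.7, 250.0 and 136.0 at GD12, 256.3, 190.0 and 151.8 at GD13, and 205.0, 210.1 and 284.0 at GD14. The 3 GD14 arrays lay within a narrower band than those of the earlier days, and GD12 replicate 2 was higher than 2 of them. The means ascended with the day, at 181 ± 60.9, 199 ± 52.9 and 233 ± 44.2 (SD, n = 3 each), but neither daily step exceeded the spread. From GD12 to GD14 the log2 change was 0.40 (SE 0.28, limma adjusted p = 0.532), with a 95% interval of 0.849 to 2.04 for the fold. The daily steps were 0.16 (SE 0.28, limma adjusted p = 0.893) and 0.24 (SE 0.28, limma adjusted p = 0.935) on the log2 scale.

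Among the transcription factors, Hand1 had the largest difference between day means. HAND1 and HAND2 are related basic helix-loop-helix factors, and HAND2 is the main lower jaw regulator of the pair. On Hand1 probe set 92766_at the arrays gave 87.0, 57.4 and 56.9 at GD12, 81.2, 114.3 and 117.9 at GD13, and 49.6, 141.7 and 67.0 at GD14. GD14 held both the lowest and the highest of the 9 values. The day means were 67.1 ± 17.2, 104 ± 20.2 and 86.1 ± 48.9 (SD, n = 3 each), so that GD13 ranked first and GD12 last. The GD13 arrays overlapped those of GD12 through a single array, since GD12 replicate 1 was above GD13 replicate 1. The first step had a log2 change of 0.62 (SE 0.36, limma adjusted p = 0.581; 95% interval of the fold 0.874 to 2.72) and the second of -0.39 (SE 0.36, limma adjusted p = 0.909). The second step rested on single GD14 arrays, at -0.81 without replicate 2 and -0.08 without replicate 1 of that day. From GD12 to GD14 it was 0.24 (SE 0.36, limma adjusted p = 0.81), and without GD14 replicate 2 it was -0.18 (adjusted p = 0.818).

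HAND1 is also a factor of the developing heart, and heart markers were read beside it. Of 6 listed heart markers 3 passed the filter. Their summed intensity was 130.7 to 237.9 on GD12, 109.3 to 216.5 on GD13 and 142.8 to 324.9 on GD14. The highest sum was on GD14 replicate 2, the array with the highest Hand1 value, where the cardiac factor Gata4 read 200.6 against 69.3 and 62.3 on the other GD14 arrays. On GD12 the order differed, as replicate 1 had the highest Hand1 value and the lowest sum. The defining heart markers Myh6, Nkx2-5 and Myl7 did not pass the filter, with highest values of 10.4, 9.2 and 19.8 over the 9 arrays. The part of these cells in the Hand1 values was not tested.

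Another Hand1 probe set, 161468_f_at, and the single Hand2 probe set, 99914_at, gave levels too low to test. The first read 12.8, 16.2 and 4.7 at GD12, 6.6, 5.2 and 15.7 at GD13, and 8.3, 6.7 and 3.2 at GD14. Only 3 of the 9 arrays lay above the filter intensity of 10.41, and they fell on GD12 and GD13. It did not follow the brighter Hand1 probe set across arrays (Pearson r = 0.07, exact permutation p = 0.855, adjusted p = 0.855; Spearman rho = 0.133, exact permutation p = 0.744, adjusted p = 0.744; r = 0.202 without the 2 farthest arrays, exact permutation p = 0.635). Hand2 read 2.6, 10.6 and 5.8 at GD12, 3.0, 5.2 and 10.7 at GD13, and 9.2, 2.4 and 6.5 at GD14, with 2 arrays above 10.41. Its day means were 6.33 ± 4.03, 6.30 ± 3.97 and 6.03 ± 3.42 (SD, n = 3 each). Such values say only that this probe set was dim. They do not show that Hand2 RNA was lacking, and a change of Hand2 was not detectable at this signal.

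Gsc encodes goosecoid, a homeobox repressor expressed in lower jaw mesenchyme. Its arrays gave 89.3, 50.6 and 77.6 at GD12, 79.3, 77.2 and 71.1 at GD13, and 82.3, 78.4 and 96.9 at GD14. Apart from GD12 replicate 2, the values lay between 71.1 and 96.9. The means were 72.5 ± 19.8, 75.9 ± 4.26 and 85.9 ± 9.75 (SD, n = 3 each), in the order of the days, with no neighbouring pair apart beyond its spread. From GD12 to GD14 the log2 change was 0.27 (SE 0.21, limma adjusted p = 0.589; 95% interval of the fold 0.861 to 1.68), and without GD12 replicate 2 it was 0.04. The daily steps were 0.10 (SE 0.21, limma adjusted p = 0.918) and 0.17 (SE 0.21, limma adjusted p = 0.938) on the log2 scale.

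**Figure D3:**
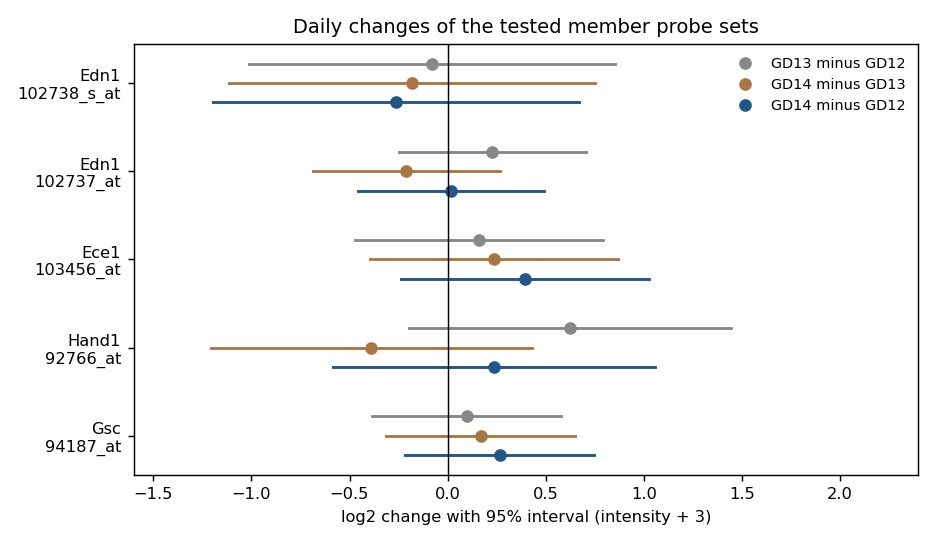
Estimated log2 change of the 5 tested member probe sets in each of the 3 comparisons, with points for estimates and bars for 95% intervals from the limma model over 9 arrays. Every bar crosses 0; the first step of Hand1, at 0.62, is the largest estimate, and the bars of Edn1 102738_s_at and Hand1 are the widest.

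The members differed in how closely their replicates agreed, and this bears on the size of estimate that could be called. The SD within a day, on the log2 scale, was 0.25 for Edn1 102737_at and 0.26 for Gsc, 0.37 for Ece1, 0.50 for Hand1 and 0.58 for Edn1 102738_s_at, where the median over all tested probe sets was 0.29. Among 1001 probe sets of nearest brightness, the SDs of Edn1 102738_s_at, Hand1 and Ece1 stood at the 89th, 90th and 87th percentile, that of Gsc at the 37th and that of Edn1 102737_at at the 7th. With these errors, the estimated GD14 to GD12 difference would have had to reach 1.86-fold for Edn1 102737_at, 1.88-fold for Gsc, 2.28-fold for Ece1, 2.92-fold for Hand1 and 3.39-fold for Edn1 102738_s_at to be called. Smaller estimates would not have been called in that comparison. These folds are cutoffs on the estimate, so they do not give the smallest true change that could be found. They do not apply to the daily steps.

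Other genes with a similar course over the 9 arrays were found for the brightest tested probe set of each member, as the 3 smallest root mean square (RMS) differences of log2 values, each centred on its own mean. For Edn1 102738_s_at these were Epb41l4a (RMS 0.21), the complement gene C1qb (0.23) and the endocytic receptor gene Ly75 (0.26). For Ece1 they were Cmtm6 (0.18), Mindy1 (0.18) and the kinase gene Akt1 (0.18). For Hand1 they were Mptx1 (0.23), the apolipoprotein gene Apoa2 (0.24) and the actin-severing protein gene Scin (0.25). For Gsc they were Arpc5, a subunit of the actin-nucleating ARP2/3 complex (0.12), the ATP synthase gene Atp5d (0.13) and Etfdh of the respiratory electron transfer (0.13). The members' own SDs over the 9 arrays were 0.52, 0.36, 0.52 and 0.25, in the same order of genes. None of these 12 probe sets was called in the F-test (lowest adjusted p = 0.316). They were picked as the nearest by these same values, so some likeness was bound to be found. Whether they share variation with the members was not tested.

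The wider pathway was read through 51 other genes in 5 groups, of which 41 had a tested probe set, each gene represented by its brightest. Between GD12 and GD14, 2 of the 41 rose and 3 fell, while 4.59% of 6868 genes were called in the table. The median log2 change was -0.24 over the 41 and -0.006 over all genes. In limma the step from GD12 to GD13 called 0 of the 41 (9 at an unadjusted p under 0.05) and the step from GD13 to GD14 called 0 (4 at an unadjusted p under 0.05), against 0.713% and 0.0437% of all genes called. From GD12 to GD14, 16 of the 41 had an unadjusted p under 0.05. The shares of all genes at that threshold were 11.4%, 7.43% and 18.7% for the first step, the second step and GD12 to GD14. The count of 5 was 2 without GD12 replicate 1 or GD14 replicate 1, and 3 without GD12 replicate 2 or GD12 replicate 3.

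The gene for the type B endothelin receptor, Ednrb, which in the embryo serves melanocyte and enteric crest precursors, fell between GD12 and GD14. It read 23.6, 26.6 and 18.2 at GD12, 16.1, 24.2 and 26.1 at GD13, and 4.7, 11.7 and 7.4 at GD14. Every GD14 array lay below every array of the earlier days, and 2 of them lay under the filter intensity, so no fold is given. The fitted difference in log2(intensity + 3) was -1.28 (SE 0.27, limma adjusted p = 0.0337). Its size depends on the added value, at -1.47 with 1 added (adjusted p = 0.0363) and -0.84 with 11 added (adjusted p = 0.0376), so the test bears on the direction and not on a size. That call ended without any single array of GD12 and without GD14 replicate 1 or 3, with the highest adjusted p at 0.111 (log2 -1.05) without GD14 replicate 1. It also ended with the actin ratio of each array as a covariate (adjusted p = 0.0683), with no filter (0.0544), with a variance trend and robust variances (0.082) and with only the groups compared (0.0748). Among 4 tested melanocyte markers 0 passed in limma (1 at an unadjusted p under 0.05, against 18.7% of all genes). Their summed intensity was 144.6 to 217.8 on GD12, 131.2 to 150.0 on GD13 and 136.2 to 220.6 on GD14. The marker genes Tyrp1 and Mitf did not pass the filter (highest values 13.7 and 26.9), and the part of melanocytes in the Ednrb result was not tested. Of the other 6 tested genes of receptors and signal transduction, the Gq-class genes Gnaq and Gna11 and the phospholipase gene Plcb1 among them, 0 passed. The group of 7 held 2 genes at an unadjusted p under 0.05, against 18.7% of all genes.

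Genes of ligands and processing gave 0 calls among the 3 tested from GD12 to GD14 in limma. Furin alone had an unadjusted p under 0.05, against 18.7% of all genes. Furin, a protease that makes the first cut in the precursor, read 276 ± 36.1 on GD12, 321 ± 23.1 on GD13 and 378 ± 68.9 on GD14 (SD, n = 3 each; log2 0.44, SE 0.18, limma adjusted p = 0.251 from GD12 to GD14). Mme, a neutral endopeptidase that degrades peptides, read 131 ± 4.45, 137 ± 47.4 and 130 ± 68.4 (SD, n = 3 each), with 1 high array on each of GD13 and GD14, replicate 3 both times. The paralogous ligand gene Edn3 did not pass (log2 0.18, adjusted p = 0.911), and Edn2 lay under the filter.

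Genes listed under the lower jaw moved in both directions. The list names do not show where in this tissue a gene was expressed, and Msx1 was also listed as a facial mesenchyme marker. Of 12 tested members 2 rose and 2 fell from GD12 to GD14, where 4.59% of all genes were called. The median log2 change of the 12 was -0.13. An unadjusted p under 0.05 was reached by 7 of the 12, against 18.7% of all genes. The homeobox gene Dlx3 read 82.1, 47.9 and 47.4 at GD12, 94.6, 107.3 and 76.6 at GD13, and 186.1, 183.2 and 157.9 at GD14. GD14 stood clear of both earlier days (log2 1.57, SE 0.23, limma adjusted p = 0.00735). The summed oral epithelial markers were also higher on each later day, and the part of epithelium in the Dlx3 values was not tested. The T-box gene Tbx3 read 41.1, 59.1 and 55.6 at GD12, 22.6, 21.6 and 29.1 at GD13, and 22.1, 14.0 and 19.3 at GD14, with GD12 above both later days (log2 -1.36, SE 0.21, limma adjusted p = 0.00876). Msx1, a homeobox gene of facial mesenchyme, read 1119.8, 1365.8 and 949.5 at GD12, 678.3, 685.0 and 700.8 at GD13, and 550.3, 635.2 and 565.4 at GD14. It fell by 0.96 on the log2 scale, and GD12 stood above both later days (limma adjusted p = 0.0142; 0.0666 without GD14 replicate 1, 0.0551 without GD12 replicate 1 and 0.0617 with only the groups compared). Mef2c, a factor that endothelin signalling works through in crest cells, rose on its brightest probe set, which read 23.4, 32.4 and 29.4 at GD12, 38.3, 41.4 and 36.8 at GD13, and 88.3, 92.1 and 44.5 at GD14 (log2 1.26, SE 0.27, limma adjusted p = 0.0337). This call ended without each array of GD12, without GD14 replicate 1 or 2 (highest adjusted p = 0.127), with no filter (0.0544) and with only the groups compared (0.0996). Its other 3 probe sets did not pass. Mef2c is also a muscle gene, and the part of muscle in its value was not tested. The endothelin response genes Dlx5 and Dlx6 did not pass. Dlx5 had means of 169 ± 10.1, 221 ± 24.8 and 262 ± 26.9 (SD, n = 3 each; log2 0.62, adjusted p = 0.0586), without overlap between GD12 and the later days, and Dlx6 was dim, at 10.4 ± 2.23, 14.0 ± 1.79 and 18.6 ± 13.9 (SD, n = 3 each; log2 0.41, adjusted p = 0.764). For the T-box gene Tbx2 the brightest probe set did not pass (log2 -0.57, adjusted p = 0.244), while a dimmer one did (log2 -0.74, adjusted p = 0.0235); Dlx5, Dlx6 and Tbx2 were picked out after their values were seen.

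Genes listed under the upper jaw and as partners of the HAND proteins gave no calls between GD12 and GD14. Whether the upper jaw list marked upper jaw cells in this tissue was not tested. Of 9 tested genes of the upper jaw list 0 passed in limma, with a median log2 change of -0.31. At an unadjusted p under 0.05 there were 3 of the 9, against 18.7% of all genes. The brightest were Six2, a homeobox gene of facial mesenchyme (1807 ± 163, 1374 ± 64.8 and 1303 ± 77.1; log2 -0.47, SE 0.14, adjusted p = 0.117), and the nuclear receptor gene Nr2f1 (344 ± 127, 399 ± 50.2 and 395 ± 88.8; log2 0.24, adjusted p = 0.742; SD, n = 3 each). Six2 passed with array weights (adjusted p = 0.0424) and with a variance trend and robust variances (adjusted p = 0.037). The lowest log2 changes of the upper jaw group were those of Dlx1 (-0.98, limma adjusted p = 0.0827) and Hey1 (-0.88, limma adjusted p = 0.0827). Both were picked out after their values were seen. Of 10 tested partners 0 passed in limma, with a median log2 change of -0.315. At an unadjusted p under 0.05 there were 3 of the 10, against 18.7% of all genes. The brightest were Id2, an inhibitor of helix-loop-helix factors (1793 ± 209.9, 2018 ± 159.8 and 1848 ± 101; log2 0.05, adjusted p = 0.913), and Tcf12, an E protein that pairs with them (1609 ± 111, 1314.5 ± 26.5 and 1207 ± 67.1; log2 -0.41, adjusted p = 0.145; SD, n = 3 each).

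**Figure D4:**
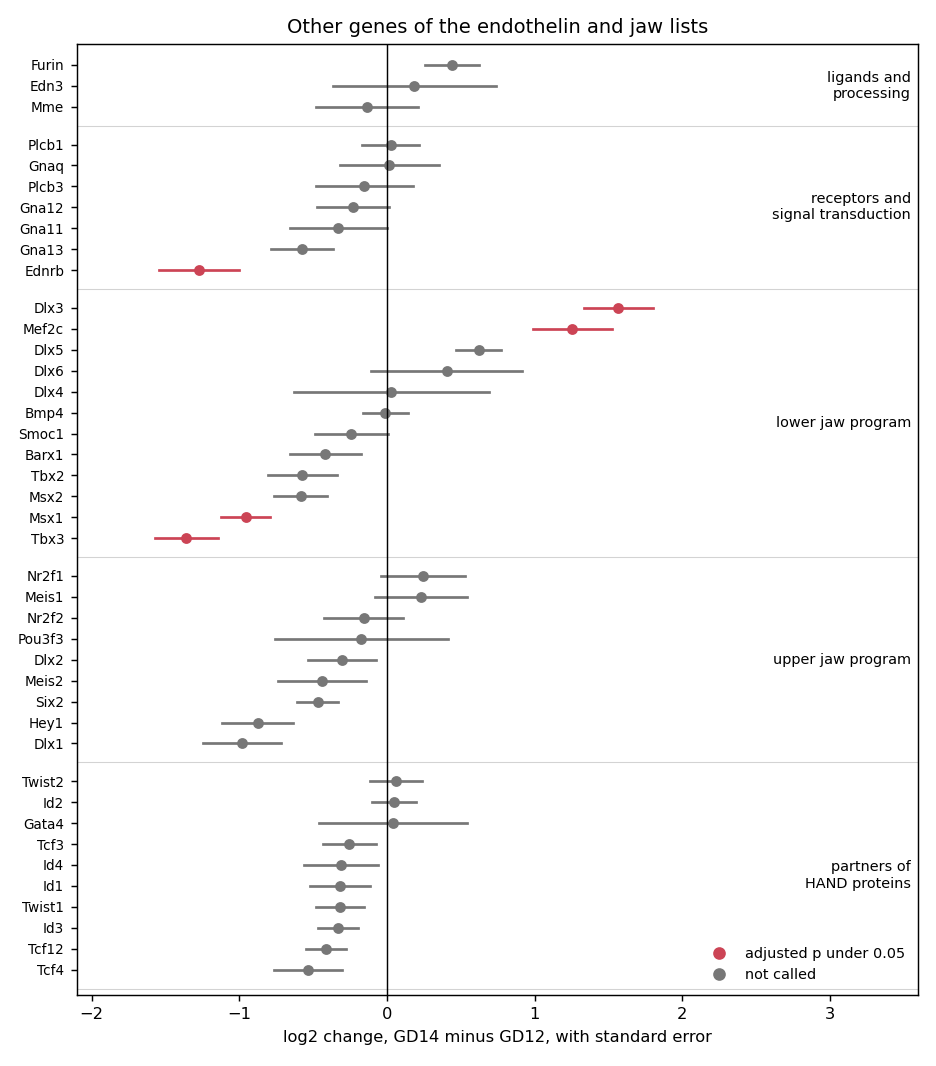
Log2 change from GD12 to GD14 of the 41 tested pathway genes by group, each by its brightest probe set, with bars for the standard error of the limma model; red marks an adjusted p under 0.05. Dlx3 and Mef2c lie to the right and Ednrb, Msx1 and Tbx3 to the left, and no gene of the other 3 groups is red.

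The tissue label was checked against markers. Of 8 facial mesenchyme markers 7 passed the filter (Msx1 among them), and their summed intensity was 5052.7 to 6363.6 over the 9 arrays. The sums of 6 oral epithelial markers (504.4 to 534.7 on GD12, 660.8 to 698.8 on GD13 and 872.4 to 927.0 on GD14) and of 5 smooth muscle and pericyte markers (320.6 to 390.4, 417.0 to 471.1 and 630.9 to 858.3) were higher on each later day without overlap. Their members did not move as one. Of 9 listed epithelial markers 6 were tested, and Krt5, Krt14 and Krt15 did not pass the filter. From GD12 to GD14, 2 of the 6 rose, Krt8 (log2 1.21, limma adjusted p = 0.00618) and Krt19 (log2 3.19, limma adjusted p = 0.00482), where 4.59% of all genes were called. Epcam (log2 0.71, limma adjusted p = 0.053), Krt18 (log2 0.77, limma adjusted p = 0.124), Cdh1 (log2 -0.02) and Trp63 (log2 -0.21) were not called. An unadjusted p under 0.05 was reached by 4 of the 6, against 18.7% of all genes. Of 7 listed smooth muscle and pericyte markers 5 were tested, and Cnn1 and Myh11 did not pass the filter. Among the 5, 2 rose, Acta2 (log2 1.68, limma adjusted p = 0.00482) and Tagln (log2 1.18, limma adjusted p = 0.00805), against the same 4.59% of all genes. Des (log2 1.23, limma adjusted p = 0.0661), Pdgfrb (log2 -0.36) and Rgs5 (log2 -0.16) were not called. An unadjusted p under 0.05 was found for 3 of the 5, against 18.7% of all genes. The sum of 9 markers of endothelium, a further source of Edn1, was 951.3 to 1020.5, 826.9 to 1041.1 and 1087.6 to 1292.3. From GD12 to GD14, 0 of the 9 passed in limma (1 at an unadjusted p under 0.05, against 18.7% of all genes). Sympathetic and enteric neurons also express Hand2; of 5 listed markers 3 had a probe set, and Th alone passed the filter (47.7 to 66.9 on GD12 and 25.3 to 38.2 on GD14, adjusted p = 0.055). In bulk tissue, fewer cells of a type and less RNA per cell cannot be told apart. Array medians lay between 47.15 and 56.95, and the 3' to 5' signal ratio of the actin controls, which rises as RNA or labelled product shortens, lay between 1.25 and 2.45. For replicates 1 and 2 it was higher at the later days, at 1.54 and 1.77 for GD12, 2.09 and 2.23 for GD13, and 2.45 and 2.29 for GD14, and for replicate 3 it was 1.42, 1.25 and 1.37. With this ratio as a covariate, 0 of the 5 member probe sets and 4 of the 41 pathway genes were called from GD12 to GD14.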

How the data were processed

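The deposited values are linear intensity readings, 1 per probe set and array, which the authors had scaled: the mean without the lowest and highest 2% was near 150.1 on all 9 arrays. The software and the array scaling method are not given in the sources used here. Symbols came from the platform annotation, and the 5 measured members have gene IDs listed for GRCm38.p6, which was used for names only. Of 12488 probe sets, 66 controls and all those at or under the 25th percentile of mean log2 value (intensity 10.41) were removed. The other 9326 were fitted with limma 3.58.1 in R 4.3.3 as 3 day means over 9 arrays (6 residual and 2.85 prior degrees of freedom) on log2(intensity + 3), and the fit was tested on simulated data. Fold changes are on that scale. The number of arrays limits the precision.

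The members, lists and alternatives were chosen with earlier results of these data known. Named genes were all members, up to 4 called genes per pathway group or otherwise the 2 brightest, and 3 genes of most similar course per member. Arrays with the same replicate number had residual correlations of 0.189 to 0.419 across days, and those with different numbers -0.287 to -0.0171. By that check arrays of the same number shared variation. The labels give only a replicate number, so they do not establish a pairing, and the source of the shared variation was not tested. The fit without the block was kept, so the errors, intervals and p-values in the Results leave this shared variation out of account. The paired fit is an alternative. Others were added values of 1 and 11, quantile normalization, median scaling, no filter, a filter at the median, a variance trend with robust variances, array weights, the actin ratio as a covariate, only the groups compared, omission of each array, and the mean of a gene's probe sets. Permutation tests and plots used Python 3.11.15 with numpy 2.4.6, pandas 2.3.3, scipy 1.17.1 and matplotlib 3.10.9.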

Additional observations from a re-analysis of the deposited data

How the results depend on the processing

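The members' counts of 0 calls held under every alternative run, with the smallest adjusted p over 252 values at 0.288 (Ece1 from GD12 to GD14 without GD12 replicate 2). With the replicate block, the paired fit, 0 member probe sets and 7 pathway genes were called, against 5 without it, and no named pathway gene lost its call. The pathway count was 3 with no filter, 8 with a variance trend and robust variances, 8 with array weights and 2 with only the groups compared, and 2 to 5 when each array was left out. The calls of Dlx3 and Tbx3 held in all 17 and 16 alternatives that gave a value. Small uncalled changes turned sign. Edn1 102737_at from GD12 to GD14 had a log2 change of -0.017 with median scaling and -0.0922 with array weights, Hand1 of -0.0053 with array weights, and Mme of 0.241 with the actin covariate. The correlation of the Hand1 probe sets was -0.0625 after quantile normalization and -0.149 to 0.311 without single arrays; the alternatives of both probe set correlations were chosen after seeing the data. Without single arrays, log2 changes from GD12 to GD14 ran from -0.147 to 0.189 for Edn1 102737_at, -0.582 to 0.069 for Edn1 102738_s_at, -0.181 to 0.549 for Hand1, -0.045 to 0.124 for Id2, -0.527 to 0.138 for Mme and -0.0506 to 0.503 for Nr2f1. From GD12 to GD13 they ran from -0.0373 to 0.414 for Ece1, -0.399 to 0.226 for Edn1 102738_s_at and -0.131 to 0.262 for Gsc, and from GD13 to GD14 from -0.487 to 0.148 for Edn1 102738_s_at. The cause of these moves was not tested. The Hand2 probe set did not pass the filter and is not among these values. At its low signal a change was not detectable.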
